A study of Mus musculus with 6 samples.

Results

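The mitochondrial solute carriers are the genes of the Slc25a series, and every gene of the deposited table whose mouse symbol, found from its Entrez number, is Slc25a followed by a number alone was taken. There were 47 such genes among 27179 in the table, and 32 of them passed the filter on low counts and were tested, among 11281 genes tested in all. Family members that carry other names (Ucp1, Ucp2, Ucp3, Mtch1 and Mtch2) are given separately. RNA came from bone marrow mesenchymal stromal cells labelled P2, from strain C57BL/6 with genotype Cxcl12-dsred/+, sorted as DsRed-positive and free of CD45, Ter119 and CD31. DsRed stands in for Cxcl12 here, so the sort holds whatever cells carry that reporter, and all 3 groups share this genotype, strain, label and sort. The groups differ only in how the poly(A) RNA was handled: Input is RNA saved before the pull-down, IgG is RNA eluted from beads carrying control IgG, and anti-m6A is RNA eluted from beads carrying an antibody to N6-methyladenosine. Each group has 2 libraries. The labels do not say whether these came from separate animals, and the spread behind each p-value is only that of these libraries and may be technical.

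Slc25 proteins sit, with few exceptions, in the inner mitochondrial membrane, where each exchanges or carries a small set of metabolites between the cytosol and the matrix. The ADP/ATP and phosphate carriers supply ATP synthase, others carry citrate, malate, aspartate, glutamate, carnitine esters, cofactors or iron. N6-methyladenosine (m6A) is an internal base modification of mRNA, and an antibody to it enriches modified transcripts, while the IgG beads show what sticks without it. Counts here are summed per gene, so they place no methylated base on a transcript.

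Library totals ran from 1278735 counts (IgG replicate 2) to 9493391 (Input replicate 2), and the Slc25a genes took between 0.252% (anti-m6A replicate 2) and 0.415% (IgG replicate 2) of them. Their share was 0.346% (exact 95% confidence interval 0.341 to 0.350) and 0.369% (0.365 to 0.373) in Input. It was 0.367% (0.359 to 0.374) and 0.415% (0.404 to 0.426) in IgG, and 0.268% (0.264 to 0.272) and 0.252% (0.247 to 0.256) in anti-m6A. Both anti-m6A libraries thus lay below the other 4; an exact two-sided permutation test of 2 libraries against 2 cannot give a p below 0.333. Members with at least 1 count numbered 25 and 30 in the Input libraries, 8 and 6 in IgG and 35 and 33 in anti-m6A. The variance between replicates, as a ratio to that of sampling noise, was 126 for the members and 119 for all genes in Input (28 members with at least 20 counts in the pair). It was 33.1 and 21.9 in IgG (6 members) and 3.79 and 9.93 in anti-m6A (27 members). Intervals and the floors used below cover counting error only, because the reads were amplified and carry no molecular identifiers. The stromal identity of the RNA was checked with 10 markers, of which all had counts in both Input and both anti-m6A libraries; they took 1.11% and 1.08% of the Input counts, 0.449% and 0.504% in IgG and 0.348% and 0.354% in anti-m6A.

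**Figure D1:**
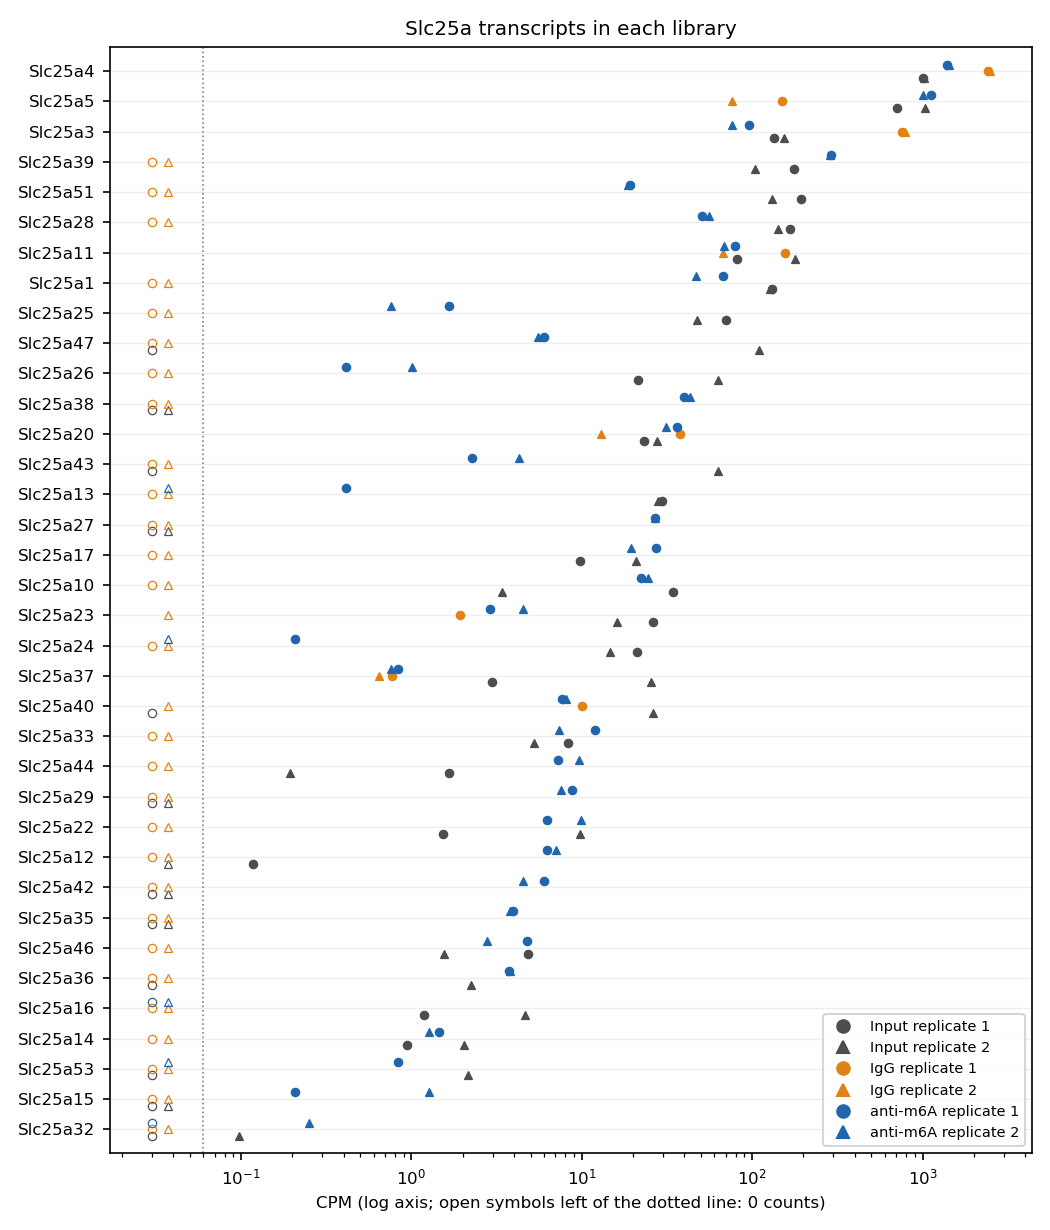
Level of the Slc25a members with any count, leaving out 1 that is not reported, in CPM (counts scaled to library size, log axis), by library; colours mark the 3 groups, circles replicate 1 and triangles replicate 2, and open symbols left of the dotted line stand for 0 counts. Slc25a3, Slc25a4, Slc25a5, Slc25a11, Slc25a20 and Slc25a37 have counts in all 6 libraries, and orange IgG symbols lie at 0 for most of the others.

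Of the 47 members, 10 had 0 counts in all 6 libraries: Slc25a2, Slc25a18, Slc25a21, Slc25a30, Slc25a31, Slc25a34, Slc25a41, Slc25a45, Slc25a48 and Slc25a54. Slc25a31 encodes the ADP/ATP carrier known from the germ line, and Slc25a18 a glutamate carrier. Another 6 members had counts in all 6 libraries, and 14 had counts in both Input and both anti-m6A libraries with 0 in both IgG libraries. A pattern of counts in both anti-m6A libraries with 0 in the other 4 was found in 6 members, of which 5 were tested and Slc25a15, a mitochondrial ornithine carrier with 1 and 5 counts in anti-m6A, was not. The only member with counts elsewhere and 0 in both anti-m6A libraries was Slc25a16, a carrier linked to coenzyme A, with 10 and 48 counts in Input; it was too low to be tested. Slc25a14 (8 and 21 counts in Input, 7 and 5 in anti-m6A), Slc25a32 (0 and 1, 0 and 1) and Slc25a53 (0 and 22, 4 and 0) were also too low. With 0 counts, a library allows up to 3, equal on the CPM scale to 0.355 and 0.291 for Input, 1.16 and 1.94 for IgG and 0.622 and 0.756 for anti-m6A.

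The ADP/ATP carriers Slc25a4 and Slc25a5 and the phosphate carrier Slc25a3 made up most of the family's counts, and the IgG libraries held them in other proportions than Input and anti-m6A. Together they gave 63.2% and 64.9% of the Slc25a counts in Input, 94.1% and 97.6% in IgG and 76.9% and 77.4% in anti-m6A. Slc25a4 counts were 1.42 and 0.995 times those of Slc25a5 in Input and 1.25 and 1.42 times in anti-m6A, but 16.2 and 32.6 times in IgG. Both encode ADP/ATP carriers; Slc25a4 is the isoform known from heart and skeletal muscle, and Slc25a5 is the more widely expressed one. Their coding sequences are 77.5% identical, with a longest shared run of 20 bases. Slc25a5 has pseudogenes that could take or lend reads, so its counts carry that uncertainty.

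**Figure D2:**
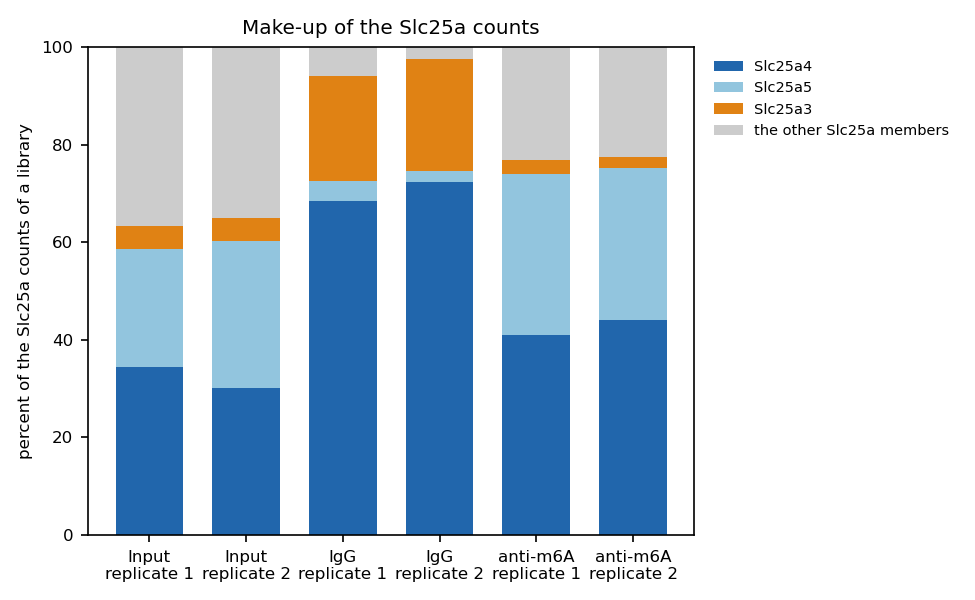
Share of the Slc25a counts of each library (percent, bars from 0 to 100) that belongs to Slc25a4, Slc25a5, Slc25a3 and the other members; each bar is 1 library. Slc25a5 takes 24.2% and 30.2% in Input and 4.22% and 2.22% in IgG, while Slc25a3 takes 4.63% and 4.55% in Input and 2.81% and 2.33% in anti-m6A.

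Slc25a4 (chromosome 8, 46207168 to 46211062, GRCm38) measured 1002 and 1022 CPM before the pull-down (Input), 2412 and 2490 CPM on IgG beads and 1391 and 1436 CPM on anti-m6A beads. The groups did not overlap, and the IgG libraries were the highest. By edgeR's quasi-likelihood test it was lower in anti-m6A than in IgG by a log2 change of -0.79 ± 0.13 (SE, n = 2 per group, adjusted p = 0.00305) and higher in IgG than in Input by 1.28 ± 0.13 (adjusted p = 0.00081). Against Input the anti-m6A change was 0.48 ± 0.13 (adjusted p = 0.0286), and this call rests on the scaling: the change was 0.041 (edgeR adjusted p = 0.874) with DESeq2's size factors and -0.062 (adjusted p = 0.735) with library totals alone. In a fit of only these groups it was 0.57 (edgeR adjusted p = 0.0747). Over all genes tested, the median log2 change went from 0.18 to -0.22 and -0.32 with those scalings. The 8 skeletal muscle markers took 0.00180% and 0.0467% of the counts in Input, 6.43e-04% and 2.35e-04% in IgG and 0.00654% and 0.00725% in anti-m6A, with Myh3, Myh8 and Actn2 at 0 throughout. The summed shares of hepatocyte markers (2.43% and 2.61% of IgG counts, 0.0153% and 0.208% of Input), erythroid markers (0.376% and 0.426% against 0.0554% and 0.0767%) and myeloid markers (0.319% and 0.254% against 0.0170% and 0.0257%) were higher in IgG, as Slc25a4 and Slc25a3 were. Single markers went both ways. In IgG against Input, 5 of 11 hepatocyte markers tested were called higher and 1 lower. The erythroid list (7 tested) gave 4 and 1, and the myeloid list (6 tested) 4 and 2. The part of all 4 marker lists in the Slc25a4 and Slc25a3 values was not tested.

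Slc25a3 (chromosome 10, 91116574 to 91124046) gave 135 and 155 CPM before the pull-down, 759 and 791 CPM with IgG and 95.2 and 75.9 CPM with anti-m6A. IgG was again the highest group and anti-m6A the lowest, with no overlap. Its log2 change was -3.18 ± 0.22 against IgG (SE, n = 2 per group, edgeR adjusted p = 0.000568), -0.76 ± 0.21 for anti-m6A against Input (adjusted p = 0.0325) and 2.42 ± 0.22 for IgG against Input. Against Input, Slc25a3 was not called in a fit of only anti-m6A and Input (-0.68, edgeR adjusted p = 0.105), and its change was -1.20 with DESeq2's size factors and -1.30 with library totals. Slc25a5 (chromosome X, 36795597 to 36798808) moved the other way relative to IgG, at 707 and 1028 CPM before the pull-down, 149 and 76.5 CPM with IgG and 1117 and 1010 CPM with anti-m6A. It was higher in anti-m6A than in IgG by 3.23 ± 0.40 (edgeR adjusted p = 0.00148). Against Input its groups overlapped, and the change of 0.29 ± 0.37 was not called (edgeR adjusted p = 0.55) and changed sign with DESeq2's size factors (-0.14) and library totals (-0.24).

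Per kilobase of transcript, which lets genes be set side by side, Slc25a5 and Slc25a4 led in Input at 699 ± 183 and 526 ± 7.47 CPM per kb (SD, n = 2), a gap within the spread of Slc25a5. Slc25a3 (108 ± 10.4) and Slc25a28 (101 ± 11.9) followed and did not differ beyond their spread. In anti-m6A the order was Slc25a5 (858 ± 61.1), Slc25a4 (734 ± 16.5) and Slc25a39 (171 ± 3.04), and in IgG it was Slc25a4 (1273 ± 28.4), Slc25a3 (578 ± 16.5) and Slc25a5 (90.9 ± 41.3). These levels used the length of 1 annotated transcript per gene.

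Setting anti-m6A against IgG asked which carrier transcripts the m6A antibody brought down beyond the background of the beads. At an edgeR adjusted p of 0.05, 19 of the 32 members tested were higher in anti-m6A (59.4%), against 73.1% of all genes tested, and 2, Slc25a3 and Slc25a4, were lower (6.25%), against 8.31% of all genes. The fitted median log2 change was 7.58 for the members and 8.48 for all genes; with genes at 0 in one group set to the bound that 3 counts per library allow, it was 1.83 and 2.88. Of the 19 higher members, 18 had 0 counts in both IgG libraries, and Slc25a5 was the exception. Among these 18, Slc25a12, Slc25a27, Slc25a29, Slc25a35, Slc25a38 and Slc25a42 passed the filter on low counts through anti-m6A alone. Against IgG they could only come out higher, so their calls are a description. For 17 of these 18 the anti-m6A level was at least 2.43-fold to at least 186-fold above the IgG floor. The remaining one, Slc25a25, was at 8 and 3 counts in anti-m6A, whose mean level lay below the IgG floor, so its call carries no fold. The count of higher members fell without anti-m6A replicate 1, a fit that leaves 1 library in that group. Among genes with 10 counts or more in all 6 libraries it was 1 of 5, against 593 of all 1757 such genes.

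The member farthest above the IgG floor was Slc25a39 (chromosome 11, 102402969 to 102408675), which encodes a mitochondrial glutathione carrier. It had 1483 and 1070 counts in Input, 0 and 0 in IgG and 1406 and 1128 in anti-m6A, and was at least 186-fold higher in anti-m6A than in IgG. In CPM, anti-m6A (292 and 284) lay above Input (175 and 104) without overlap, but the log2 change of 1.04 ± 0.35 (SE, n = 2 per group) was not called (edgeR adjusted p = 0.0704). It was called without Input replicate 1 (1.49, edgeR adjusted p = 0.00357), without Input replicate 2 (0.71, adjusted p = 0.0324) and in a fit of only these groups (1.16, adjusted p = 0.0263). With DESeq2's size factors and library totals it was 0.59 and 0.49, not called. Other abundant members missing from IgG were Slc25a1, the citrate carrier (at least 36.7-fold higher), Slc25a28, mitoferrin 2 (at least 34.3-fold), Slc25a38, a glycine carrier needed for haem synthesis (at least 26.6-fold), and Slc25a27, an uncoupling-protein-like carrier also called UCP4 (at least 17.4-fold). Slc25a38 and Slc25a27 passed the filter on low counts through anti-m6A alone, so they could only come out higher.

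Of the members not called against IgG, 6 had 0 counts in both IgG libraries too. Slc25a11, the oxoglutarate-malate carrier, and Slc25a20, the carnitine-acylcarnitine carrier of fatty acid oxidation, were present on both kinds of beads. Slc25a11 had 692 and 1832 counts in Input, 404 and 104 in IgG and 381 and 270 in anti-m6A. In CPM both anti-m6A libraries (79.0 and 68.1) lay below both Input libraries (81.9 and 178), and IgG overlapped both groups; the change against Input of -0.82 ± 0.55 (SE) was not called. Slc25a20 had 195 and 285 counts in Input, 98 and 20 in IgG and 174 and 124 in anti-m6A, with anti-m6A above Input in CPM and IgG spanning both. Neither gene was called in any of the 3 comparisons.

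Setting anti-m6A against Input asked which carriers the pull-down enriched or depleted relative to the starting RNA. Of the 32 members tested, 7 were higher (21.9%), against 28% of all genes tested, and 9 were lower (28.1%), against 20.5% of all genes. The median log2 change was 0.27 for the members and 0.18 for all genes. The higher members were Slc25a4, Slc25a12, Slc25a27, Slc25a29, Slc25a35, Slc25a38 and Slc25a42, and the lower ones Slc25a1, Slc25a3, Slc25a13, Slc25a24, Slc25a25, Slc25a26, Slc25a28, Slc25a37 and Slc25a51. Without anti-m6A replicate 1 the same test called 0 higher and 0 lower members (4 and 5 at an unadjusted p under 0.05), and without anti-m6A replicate 2 it called 1 higher, Slc25a38, and 0 lower (5 lower unadjusted). Leaving out either Input library raised both counts, but those fits also tested more genes, 11983 without replicate 1 and 11651 without replicate 2. Without Input replicate 1, 35 members were tested and calls rose over all genes too. That rise is therefore not particular to the members.

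**Figure D3:**
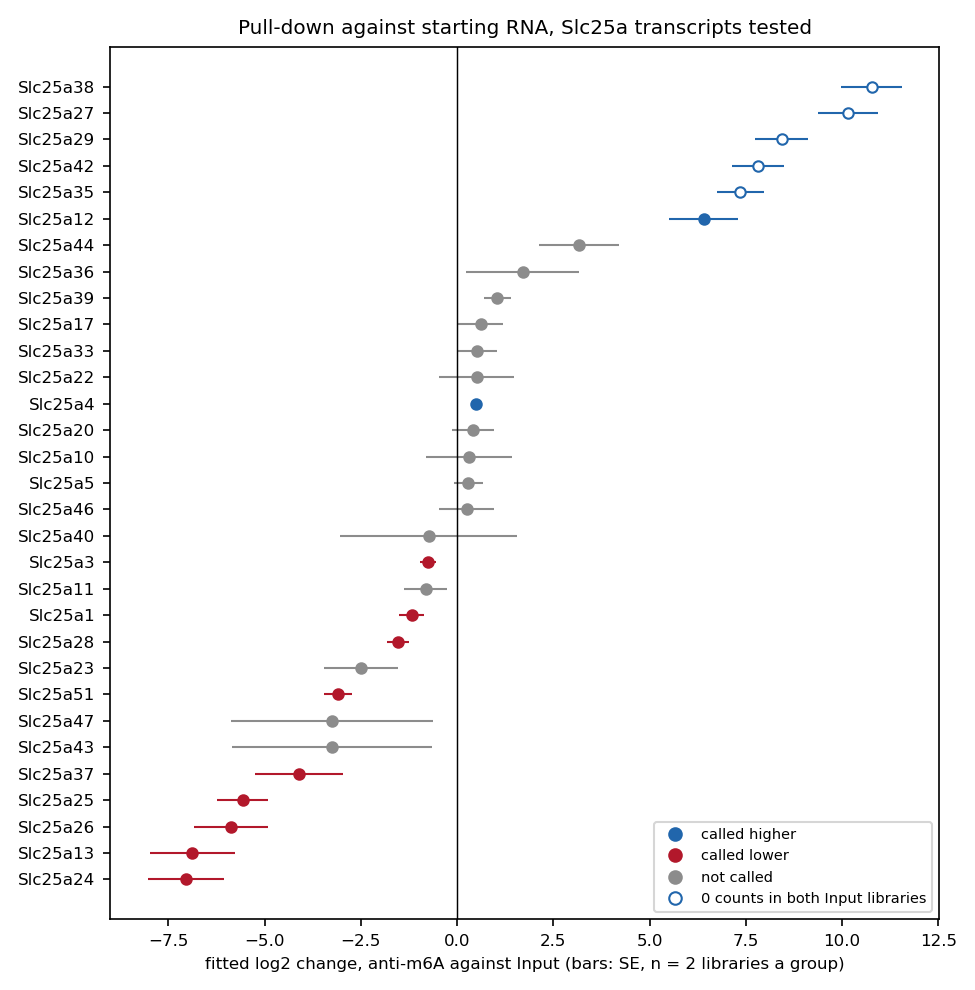
Fitted log2 change of anti-m6A against Input (x axis, bars are SE, n = 2 libraries a group) for the Slc25a members tested, leaving out 1 that is not reported, blue called higher, red called lower, grey not called. The 5 open points (Slc25a38, Slc25a27, Slc25a29, Slc25a42 and Slc25a35) had 0 counts in both Input libraries, so their fitted values depend on the prior count of the test; Slc25a24, at -7.05, is the lowest.

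Among the members called higher, 5 had 0 counts in both Input and both IgG libraries. They passed the filter on low counts through their anti-m6A counts alone, so they could only come out higher, and they are given as a description. Slc25a38 (chromosome 9, 120110377 to 120126093) had 191 and 170 anti-m6A counts against 0 in each of the other 4 libraries, at least 128-fold above the Input floor. Slc25a27 (chromosome 17, 43637739 to 43667214) had 130 and 107 counts in anti-m6A and 0 elsewhere, at least 83.5-fold higher than Input. The same presence in anti-m6A alone held at lower counts for 3 more carriers. Slc25a29, a carrier of basic amino acids, had 42 and 30 counts (at least 25.2-fold above the Input floor), Slc25a42, a coenzyme A carrier, 29 and 18 (at least 16.3-fold), and Slc25a35, whose substrate is not stated here, 19 and 15 (at least 11.95-fold). Exons of Slc25a35 overlap those of Rangrf, and the counting is not stated to use strand, so its reads are uncertain. The Input libraries had more counts in all than the anti-m6A libraries.

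The aspartate-glutamate carriers, which serve the malate-aspartate shuttle, went in opposite directions. Slc25a12 (also called aralar) had 1 and 0 counts in Input, 0 and 0 in IgG and 30 and 28 in anti-m6A, a log2 change against Input of 6.41 ± 0.89 (SE, n = 2 per group, edgeR adjusted p = 0.00829). Slc25a13 (also called citrin) had 250 and 289 counts in Input, 0 and 0 in IgG and 2 and 0 in anti-m6A, a change of -6.88 ± 1.10 (adjusted p = 0.0112). Their groups did not overlap. Slc25a12 passed the filter on low counts through anti-m6A alone, and Slc25a13 through Input alone. A call could thus only be higher for Slc25a12 and lower for Slc25a13, and both are given as a description. Their coding sequences are 70.6% identical, with a longest shared run of 21 bases.

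Members higher in anti-m6A than in both IgG and Input numbered 6 of 32 (18.8%), against 23.6% of all genes tested, by the larger of both one-sided edgeR p-values. They were Slc25a12, Slc25a27, Slc25a29, Slc25a35, Slc25a38 and Slc25a42. Of these, 5 were at 0 in the other 4 libraries and Slc25a12 had 1 count there, so all 6 entered the test through anti-m6A alone and the count is no support for enrichment of the family. The count was 0 without either anti-m6A library (4 and 5 at an unadjusted p under 0.05), 3 without either IgG library, and 13 without Input replicate 2.

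The calcium-regulated ATP-magnesium/phosphate carriers, which adjust the adenine nucleotide content of the matrix, were low after the pull-down. Slc25a24 had 179 and 151 counts in Input and 1 and 0 in anti-m6A, a log2 change of -7.05 ± 0.99 (SE, n = 2 per group, edgeR adjusted p = 0.00832). Slc25a25 had 596 and 492 counts in Input and 8 and 3 in anti-m6A, a change of -5.57 ± 0.66 (adjusted p = 0.00716). For both genes each Input library exceeded each anti-m6A library. Both passed the filter on low counts through Input alone, so a call could only be lower, and they are given as a description. Slc25a23 had 220 and 166 counts in Input, 5 and 0 in IgG and 14 and 18 in anti-m6A, and its change of -2.50 ± 0.96 was not called (adjusted p = 0.0837). Slc25a41, another ATP-magnesium/phosphate carrier, was at 0 in all 6 libraries. Exons of Slc25a25 overlap those of Naif1, so its reads are uncertain.

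Slc25a26, which carries S-adenosylmethionine, the methyl donor of RNA and DNA methylation, into mitochondria, had 180 and 650 counts in Input, 0 and 0 in IgG and 2 and 4 in anti-m6A. Against Input this was a log2 change of -5.87 ± 0.96 (n = 2 per group, SE, with an edgeR adjusted p = 0.0117). Slc25a26 passed the filter on low counts through Input alone, so a call could only be lower. Slc25a51, the NAD carrier of mitochondria, had 1633 and 1350 counts in Input, 0 and 0 in IgG and 93 and 74 in anti-m6A. In CPM, Input (193 and 131) lay far above anti-m6A (19.3 and 18.7), a change of -3.09 ± 0.35 (adjusted p = 0.00716). Slc25a1 stood at 130 and 128 CPM in Input and 67.2 and 46.6 in anti-m6A (change -1.18 ± 0.32, adjusted p = 0.0424). Without a count filter the Slc25a1 change was not called (edgeR adjusted p = 0.0545). Exons of Slc25a26 overlap those of Lrig1, and exons of Slc25a51 those of a predicted gene, so the reads of both are uncertain.

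The mitoferrins bring iron into mitochondria for haem and iron-sulphur clusters. Both were called lower in anti-m6A than in Input, with calls that several fits did not keep. Slc25a28 (mitoferrin 2) had 1413 and 1457 counts in Input, 0 and 0 in IgG and 246 and 220 in anti-m6A, a log2 change of -1.53 ± 0.28 (SE, n = 2 per group, edgeR adjusted p = 0.0149). Slc25a37 (mitoferrin 1, known for its role in red cell precursors) had 25 and 261 counts in Input, 2 and 1 in IgG and 4 and 3 in anti-m6A, a change of -4.12 ± 1.14 (adjusted p = 0.0340). The Input libraries differed widely in Slc25a37, and both exceeded anti-m6A in CPM. This gene passed the filter on low counts through Input alone, so a call could only be lower. The change was -1.86 without Input replicate 2, and it was not called without IgG replicate 1 or 2 (edgeR adjusted p = 0.0662 and 0.0665). Leaving out anti-m6A replicate 1 or 2 also ended the call (edgeR adjusted p = 0.249 and 0.264), as did a fit of only these groups (0.070). Exons of Slc25a37 overlap those of 2 predicted genes, so its reads are uncertain. Of 11 erythroid markers 9 were in the table; they took 0.0554% and 0.0767% of the counts in Input, 0.376% and 0.426% in IgG and 0.0832% and 0.0944% in anti-m6A. Among the defining ones Klf1 had 0 and 452 counts in Input, Alas2 0 and 48, and Gata1 and Epb42 were at 0 in both; their part in the Slc25a37 values was not tested. For the difference between the Input libraries, fewer cells of a type and less RNA per cell cannot be told apart in bulk samples.

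By role, adenine nucleotide and phosphate carriers (6 of 8 tested) gave 1 higher and 3 lower members against Input, where 28% of all genes tested were higher and 20.5% lower. Carriers of tricarboxylic acid cycle intermediates (3 of 4 tested) gave 0 and 1, amino acid carriers (6 of 9 tested) 3 and 1, and cofactor, nucleotide and one-carbon carriers (9 of 11 tested) 1 and 2. Both iron carriers were lower, and of the uncoupling-protein-like carriers the 1 tested, Slc25a27, was higher. The members whose substrate is not stated (3 of 8 tested) gave 1 higher, Slc25a35, and 0 lower, and Slc25a20 and Slc25a46, each alone in its role, were not called. Members were few in each role, so these are counts and not tests. Slc25a12, Slc25a27, Slc25a29, Slc25a35, Slc25a38 and Slc25a42 passed the filter on low counts through anti-m6A alone. Slc25a13, Slc25a24, Slc25a25, Slc25a26 and Slc25a37 passed it through Input alone. The direction of a call for these members was therefore fixed by the filter, including every call among the amino acid carriers.

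Another 16 members tested were not called against Input, and several of these had Input replicates that disagreed. Slc25a47, a carrier known from liver, had 0 and 1136 counts in Input, 0 and 0 in IgG and 29 and 22 in anti-m6A. Slc25a43 had 0 and 645 counts in Input and 11 and 17 in anti-m6A, and Slc25a40, a paralogue of Slc25a39, had 0 and 271 in Input, 26 and 0 in IgG and 37 and 32 in anti-m6A. For these 3 genes the anti-m6A values lay between those of the Input libraries. The 14 hepatocyte markers took 0.0153% and 0.208% of the Input counts, 2.43% and 2.61% in IgG and 0.0990% and 0.102% in anti-m6A, with Cps1 and Otc at 0 in all 6 libraries. Slc25a47 was at 0 in the IgG libraries, where the summed share of these markers was highest, and present in the Input library with more of them. Of the 14 markers, 6 and 7 were also at 0 in IgG replicates 1 and 2. Among the 11 tested, 5 were called higher and 1 lower in IgG than in Input. The part of these markers in the Slc25a47 values was not tested.

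The remaining members tested were low or similar in Input and anti-m6A. Slc25a10, the dicarboxylate carrier, had 289 and 35 counts in Input and 107 and 97 in anti-m6A, and Slc25a17, a peroxisomal carrier of cofactors, 83 and 214 against 132 and 77. Slc25a22, a glutamate carrier, had 13 and 100 counts in Input and 30 and 39 in anti-m6A, and Slc25a33, a pyrimidine nucleotide carrier, 70 and 54 against 58 and 29. Each of these 4 was at 0 in both IgG libraries and was higher in anti-m6A than in IgG. Slc25a44, a carrier of branched-chain amino acids, had 14 and 2 counts in Input and 35 and 38 in anti-m6A (log2 change 3.18 ± 1.04 SE, n = 2 per group, edgeR adjusted p = 0.0671). Slc25a46, which lies in the outer membrane, had 41 and 16 counts in Input and 23 and 11 in anti-m6A, and Slc25a36 had 0 and 23 against 18 and 15.

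The comparison of IgG with Input gave the background of the beads. Of the 32 members tested, 17 were lower in IgG (53.1%), against 61.5% of all genes tested, and 2, Slc25a3 and Slc25a4, were higher (6.25%), against 9.89% of all genes. Among these 17, Slc25a13, Slc25a24, Slc25a25, Slc25a26 and Slc25a37 passed the filter on low counts through Input alone. For them a call could only be lower. Slc25a28 and Slc25a51 had the largest bounds, at least 99.4-fold and at least 104-fold lower in IgG. These comparisons share libraries with those above. Restricted to genes that reach 10 counts in every library, Slc25a4 was not called here (log2 change 0.39, edgeR adjusted p = 0.0806), while Slc25a3 was (1.53).

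Length and a short motif were looked up in GENCODE transcripts of GRCm38, taking the transcript with the longest coding sequence of each gene. The median transcript length was 1976 bases in the 7 members higher than Input, 1955 in the 16 not called and 3121 in the 9 lower. Among all 10324 tested genes with a transcript the medians were 2366, 2808 and 3446 bases in the same order. Spearman's rho between log2 change and transcript length was 0.04 over the 32 members, which share libraries and differ in depth, and -0.20 over all genes. The motif GGACT, a frequent form of the m6A consensus, was searched on the transcript strand only. It was present in 30 of 32 members (93.8%) and in 91.3% of all genes, with a median of 3 copies in the higher and 4 in the lower members. Within 100 bases on either side of the end of the stop codon it was found in 0 of 7 higher and 3 of 9 lower members, and in 25.4% of all higher and 23.2% of all lower genes.

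**Figure D4:**
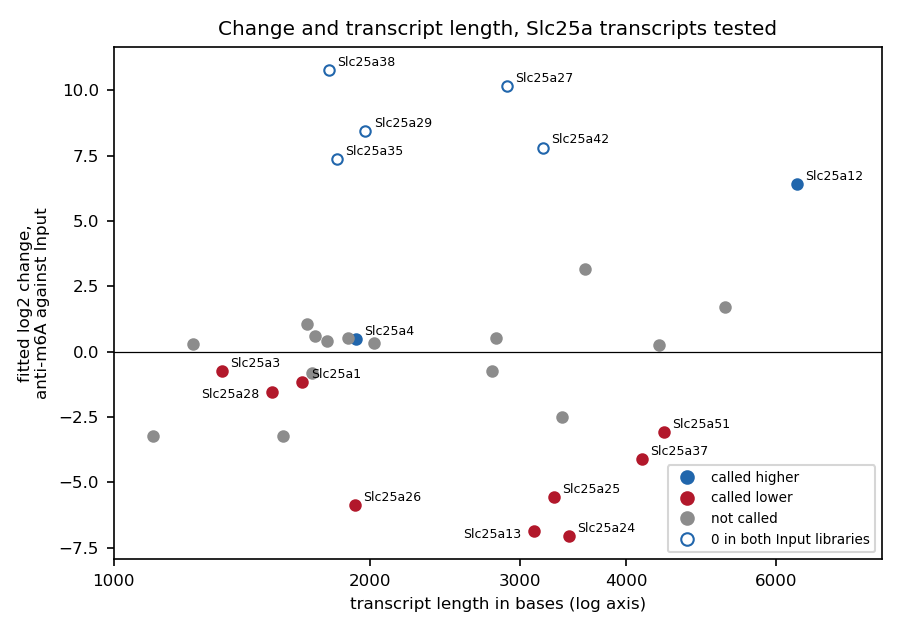
Fitted log2 change of anti-m6A against Input (y axis) against the length of the annotated transcript in bases (x axis, log axis) for the members tested, leaving out 1 that is not reported, coloured as called higher, lower or not called, with open points at 0 counts in both Input libraries. Slc25a12, at 6351 bases, is the longest and was higher; Slc25a24, Slc25a25 and Slc25a13, at 3431, 3294 and 3121 bases, were among the lower ones.

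The copy of GGACT nearest to the stop codon is shown for 2 members found in anti-m6A and not in Input, Slc25a29 and Slc25a42, and for 2 whose counts nearly vanished in anti-m6A, Slc25a25 and Slc25a13, because the motif is present on both sides of the comparison. Sequences are from GENCODE release M21 transcripts, 5′ to 3′ on the transcript strand, with the motif in capitals:
Slc25a29: taaaatggGGACTcctcctca
Slc25a42: cctatgcgGGACTcagcttct
Slc25a25: agggtggtGGACTtggtgagc
Slc25a13: actgctggGGACTcctagagt

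On GRCm38 they lie at chr12:108826588-108826608 (Slc25a29, 3′ UTR), chr8:70188333-70188353 (Slc25a42, coding), chr2:32416113-32416133 (Slc25a25, 3′ UTR) and chr6:6042143-6042163 (Slc25a13, coding), all on the minus strand. In that order the 4 transcripts hold 3, 4, 9 and 5 copies. A match is a description of the sequence and not a methylated site, and gene counts do not say which part of a transcript was bound.

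Other mitochondrial transport genes and regulators were listed for comparison, 34 in the table and 29 tested. Against Input 10 were higher and 3 lower in anti-m6A, and against IgG 19 were higher and 3 lower, beside the same shares of all genes as above. Family members under other names were Mtch1, with 2472 and 2773 counts in Input and 811 and 685 in anti-m6A, Mtch2, with 451 and 562 against 215 and 152, and Ucp2, with 0 and 0 against 22 and 14. All 3 were at 0 in IgG and higher in anti-m6A than in IgG. Ucp2 and the ABC transporter Abcb6 had counts in anti-m6A alone. They passed the filter on low counts through that group, so they could only come out higher. Ucp1 and Ucp3, the uncoupling proteins of brown fat and muscle, were at 0 in all 6 libraries. The pyruvate carrier subunit Mpc2 had 1943 and 2353 counts in Input, 0 and 0 in IgG and 4911 and 4687 in anti-m6A, and was higher than in both. The outer membrane channel Vdac2 resembled Slc25a3 in being high on IgG beads, with 2998 and 1841 counts there against 724 and 1906 in Input and 598 and 460 in anti-m6A.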

How the data were processed

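The values are raw gene counts as deposited by the authors, 1 row per Entrez number and 6 library columns. Per the submitters' processing notes, Picard, featureCounts, edgeR 3.38.1 and build mm10 were used, with no role or order; aligner and annotation: not given in the sources used here. Per the labels' protocols, libraries were made by Smart-seq2, which does not mark strand. Symbols came from RefSeq's GRCm38.p6 table (25275 of 27179 numbers matched).

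Counts were fitted in R 4.3.3 with edgeR 4.0.16: filterByExpr (minimum count 10, minimum total 15), TMM, and 1 quasi-likelihood fit of all 6 libraries (a mean per group, 3 residual degrees of freedom). Benjamini-Hochberg adjustment covered all 11281 genes, threshold 0.05. The SE is the log2 change divided by the square root of F. CPM are counts scaled to TMM-adjusted library size. A bound ("at least") divides the other group's mean CPM by the mean that 3 counts per library stand for. The script was tested on simulated data. Alternatives were DESeq2 1.42.0 and other scalings, filters and sample sets.

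Members, role classes and marker lists were chosen with earlier results of these data known. The values of 1 member, which stays in every count, and of 1 marker are not reported here. Full values were given by rule for the 10 with most counts, up to 6 with the largest called change against Input in each direction, those called lower than IgG, up to 6 with most anti-m6A counts and 0 in IgG, up to 4 at 0 in anti-m6A alone, and paralogues named in advance. Of the other marker lists, the 5 endothelial genes took 0.00488% and 0.00786% of Input, 0% of IgG and 7.87e-04% and 7.21e-04% of anti-m6A counts. The 4 brown fat genes took 0.123% and 0.120%, 0.325% and 0.331%, and 0.302% and 0.300%, with Ucp1 and Cidea at 0 throughout. The 10 myeloid genes took 0.0170% and 0.0257%, 0.319% and 0.254%, and 0.00937% and 0.00972%.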

Additional observations from a re-analysis of the deposited data

How the results depend on the processing

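Counts are members called by edgeR's quasi-likelihood test unless stated. With at least 10 counts in each library only 5 members could be tested: 1 higher against IgG, 0 higher (0 at an unadjusted p under 0.05) and 2 lower against Input, 1 higher and 1 lower in IgG against Input, and 0 higher than both. Of the 1757 genes tested there, 593 were higher against IgG, and 410 were higher and 518 lower against Input. In IgG against Input 480 were higher and 571 lower, and 190 were higher than both. Leaving out 1 library at a time gave 12 to 23 members higher and 2 lower against IgG, 0 to 15 higher and 0 to 14 lower against Input, 2 to 3 higher and 13 to 22 lower in IgG against Input, and 0 to 13 higher than both; where a group was left with 1 library, it was assumed to vary like the others. The replicate numbers of the titles pair nothing that the labels state, and the replicates' differences correlated by 0.041 to 0.0997 between groups. With the replicate block 4 members were higher and 5 lower against Input, where 2122 and 1242 of all 11281 genes were called. That fit called 0 members (8 at an unadjusted p under 0.05) and 0 of all genes higher than both. With that block Slc25a28 and Slc25a37 were no longer called against Input (edgeR adjusted p = 0.0518 and 0.0796). The same held for Slc25a1, Slc25a3, Slc25a4, Slc25a35 and Slc25a42 (edgeR adjusted p = 0.0855, 0.0787, 0.0845, 0.0636 and 0.0552). The other counts stayed within 1.5 times. Signs turned for Slc25a4 against Input with library totals (-0.062) and with at least 10 counts in each library (-0.083), for Slc25a5 against Input with DESeq2's size factors (-0.14), library totals (-0.24), at least 10 counts in each library (-0.27) and the DESeq2 Wald test (-0.14), and for Slc25a37 against IgG with library totals (-0.34); none of these was called. The cause was not tested. IgG depth (at most 2487148 counts) limits which members can be told from background.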
